A study of Mus musculus with 9 samples.

Results

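The *Cyp4* genes encode cytochromes P450 that hydroxylate the end (omega) carbon of fatty acids. Here 10 of them, *Cyp4a10*, *Cyp4a14*, *Cyp4a12a*, *Cyp4a12b*, *Cyp4a31*, *Cyp4a32*, *Cyp4f13*, *Cyp4f14*, *Cyp4f15* and *Cyp4v3*, were taken by name from a table of 19329 gene symbols. Liver RNA came from 9 C57BL/6J mice, an inbred strain with no allele or transgene added, all kept on standard chow under a light-dark cycle until the age of 8 weeks. From then on 5 mice stayed on chow (Chow 1 to 5) and 4 were fed a high-sucrose diet (HSD 1 to 4) over 3 weeks until livers were collected at 11 weeks of age. The comparison asks how a sugar-rich diet used as a mouse model of fatty liver alters liver transcripts. Each library is a separate mouse, of a sex not given in the sources used here. Poly-A libraries of whole liver were read as pairs of 51-base reads, and kallisto gave estimated counts, which summed to 12769668 to 25913869 per chow liver and 14040723 to 24825322 per HSD liver. Whole tissue was measured, so fewer cells of a type and less RNA per cell cannot be told apart.

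Omega-hydroxylation is a minor path of fatty acid breakdown beside beta-oxidation. A microsomal P450 of family 4, fed with electrons by P450 reductase, puts a hydroxyl group on the methyl end, alcohol and aldehyde dehydrogenases turn it into an acid, and the dicarboxylic acid is then shortened in peroxisomes. In rodent liver the *Cyp4a10* and *Cyp4a14* genes are classical targets of PPARA, the nuclear receptor for fatty acids, while *Cyp4a12a* is a male-predominant gene whose enzyme also makes 20-HETE from arachidonic acid. Family 4F enzymes also inactivate leukotrienes and other eicosanoids, and *Cyp4v3* is the mouse counterpart of human *CYP4V2*, the gene of Bietti crystalline corneoretinal dystrophy.

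All 10 members share the cysteine that binds the heme iron, and the coding bases around it show how close they are. Each run of 30 coding bases below, read from GENCODE vM21 transcripts on GRCm38, spans the junction between 2 exons and is given 5′ to 3′ on the gene's strand, with the cysteine codon in capitals.
Cyp4a10, Cyp4a31 and Cyp4a32: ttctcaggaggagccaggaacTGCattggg
Cyp4a12a and Cyp4a12b: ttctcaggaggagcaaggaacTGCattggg
Cyp4a14: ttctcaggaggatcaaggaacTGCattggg
Cyp4f13: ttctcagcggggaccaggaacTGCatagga
Cyp4f14: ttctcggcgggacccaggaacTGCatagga
Cyp4f15: ttctccgctgggcccaggaacTGCatagga
Cyp4v3: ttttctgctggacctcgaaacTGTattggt
Against *Cyp4a10* in these 30 bases, the *Cyp4a12* pair differed at 1 base, *Cyp4a14* at 2, *Cyp4f13* and *Cyp4f14* at 6, *Cyp4f15* at 7 and *Cyp4v3* at 10. *Cyp4v3* alone among the 10 used the codon TGT.

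The genes lie in 3 places of GRCm38. On chromosome 4 the *Cyp4a* genes stand in the order *Cyp4a12a* (chr4:115299046-115332815, plus strand), *Cyp4a12b* (chr4:115411624-115439034, plus), *Cyp4a14* (chr4:115486200-115496142, minus), *Cyp4a10* (chr4:115518264-115533649, plus), *Cyp4a31* (chr4:115563649-115579015, plus) and *Cyp4a32* (chr4:115600969-115621602, plus). On chromosome 17 lie *Cyp4f15* (chr17:32685627-32703352, plus), *Cyp4f14* (chr17:32905070-32917342, minus) and *Cyp4f13* (chr17:32924688-32947402, minus). *Cyp4v3* is on chromosome 8 (chr8:45304944-45333216, minus).

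Close copies limit what short reads can tell apart. The coding sequences of *Cyp4a12a* and *Cyp4a12b* were 98.5% identical, with 23 differences in 1524 bases, and 54.2% of all stretches as long as a read (51 bases) held none of them. *Cyp4a10* was 97.2% identical to *Cyp4a32* and 96.6% to *Cyp4a31*, and 13.4% of read-length stretches held no difference among the 3. In the stretches richest in differences the copies can be told apart, as these coding bases show, with capitals at positions that differ within a group. The *Cyp4a12* pair is compared in exon 6 (chr4:115326631-115326681 and chr4:115432884-115432934), and the *Cyp4a10* group in exon 2 (chr4:115519630-115519680, chr4:115565010-115565060 and chr4:115602260-115602310), all on the plus strand.
Cyp4a12a: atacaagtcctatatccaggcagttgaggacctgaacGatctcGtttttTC
Cyp4a12b: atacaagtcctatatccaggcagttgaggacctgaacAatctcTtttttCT
Cyp4a10: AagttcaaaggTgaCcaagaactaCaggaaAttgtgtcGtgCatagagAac
Cyp4a31: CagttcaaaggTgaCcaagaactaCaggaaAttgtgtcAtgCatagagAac
Cyp4a32: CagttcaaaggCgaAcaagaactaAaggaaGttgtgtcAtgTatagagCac

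**Figure D1:**
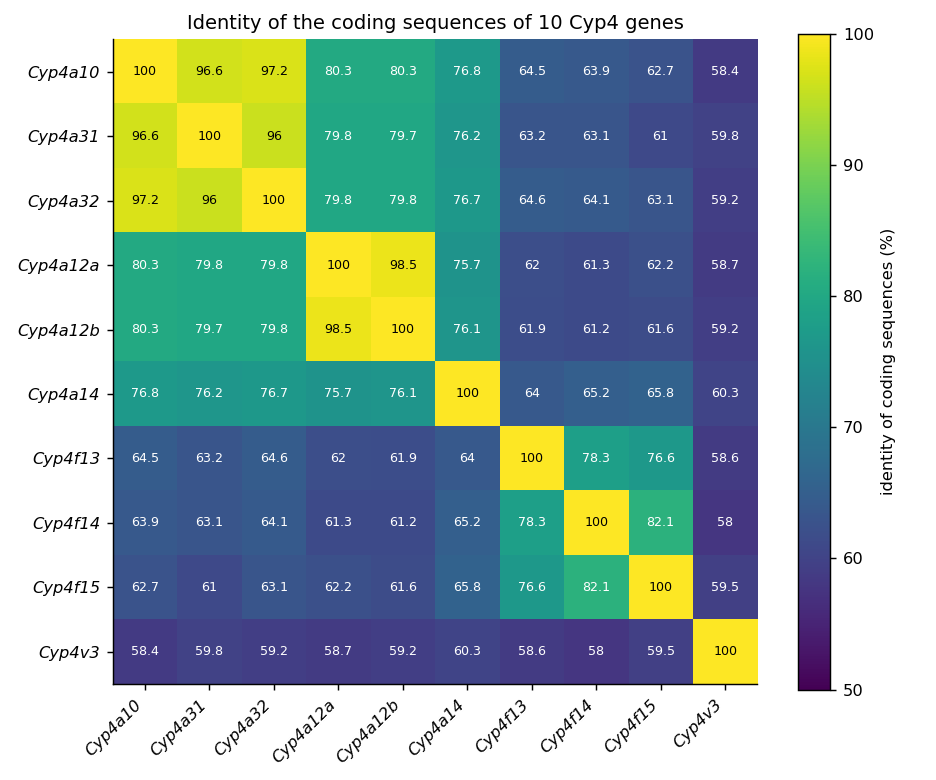
Percent identity of the aligned coding sequences for every pair of the 10 members (rows and columns, color and number in percent). The *Cyp4a10*, *Cyp4a31* and *Cyp4a32* block and the *Cyp4a12* pair reach 96 to 98.5%, whereas *Cyp4v3* is at 58 to 60.3% with every other member.

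Kallisto works on 31-base words, and the share of a gene's words that also occur in another gene was 62.2% for *Cyp4a12a*, 62.9% for *Cyp4a12b*, 62.8% for *Cyp4a32*, 44.9% for *Cyp4a10* and 32% for *Cyp4a31*. It was 1.99% for *Cyp4a14* and 3.76 to 7.49% for the *Cyp4f* members and *Cyp4v3*. Counts of the first 5 genes can therefore be traded within their groups and single values of them are uncertain, so group sums are given beside them.

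All 10 members were transcribed in every liver and all passed the filter on low counts. Levels of different genes are compared as TPM, which corrects for transcript length. *Cyp4a12a* was the highest at 241 ± 46.5 TPM on chow (SD, n = 5) and 196 ± 34.6 on HSD (n = 4). *Cyp4f14* stood at 164 ± 33.5 and 160 ± 9.37 TPM, and *Cyp4v3* at 138 ± 24.8 and 108 ± 19.9. Next came *Cyp4f15* (85.2 ± 18.7 and 60.5 ± 5.50 TPM), *Cyp4a12b* (81.2 ± 27.4 and 82.5 ± 13.7), *Cyp4a10* (67.3 ± 69.7 and 101 ± 94.4) and *Cyp4f13* (51.4 ± 3.68 and 50.4 ± 4.08). The lowest were *Cyp4a32* (22.8 ± 9.74 and 19.6 ± 8.33 TPM), *Cyp4a14* (7.95 ± 12.8 and 35.2 ± 35.9) and *Cyp4a31* (6.95 ± 7.51 and 9.04 ± 7.74). On chow the means of *Cyp4a12b* and *Cyp4a10* lay within each other's SD, as did those of *Cyp4a14* and *Cyp4a31*. On HSD the mean of *Cyp4a12b* lay within the wide SD of *Cyp4a10*, but the mean of *Cyp4a10* lay above that of *Cyp4a12b* by more than its SD. The same held for *Cyp4a31* and *Cyp4a14*, the latter being the higher.

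The diet difference was tested by edgeR's quasi-likelihood method over 12091 genes, an adjusted p (Benjamini-Hochberg) under 0.05 counting as a change, and levels of 1 gene across livers are given as CPM, counts scaled to a common library size. *Cyp4f15* and *Cyp4v3* were lower on HSD, and none of the other 8 members passed. Thus 2 of 10 members were lower, against 3.23% of all genes tested, and 0 were higher, against 3.44%, and in either direction 2 of 10 were called, against 6.67%. At an unadjusted p under 0.05 there were 4 members, *Cyp4f15*, *Cyp4v3*, *Cyp4a12a* and *Cyp4f13*, and 0 of these were higher. DESeq2 and limma voom also called 0 members higher. The median log2 fold change (HSD over Chow) was -0.21 over the members and -0.0039 over all genes. In 0 of 10 members were the diets fully apart, which 11.3% of all genes were, 5.51% with every HSD liver below every chow liver.

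**Figure D2:**
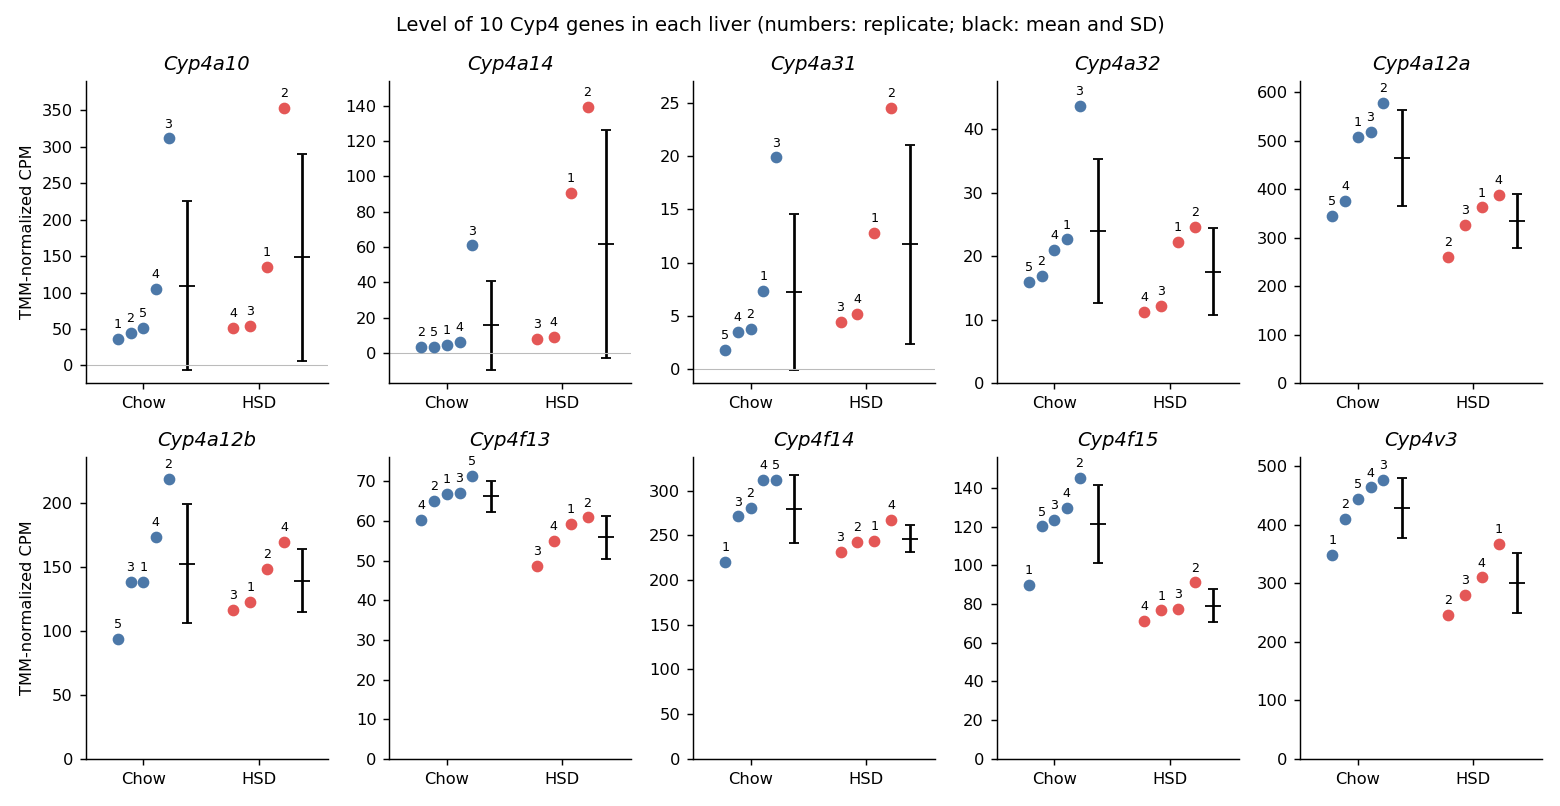
TMM-normalized CPM (y axis from 0 or just below) of each member in the 5 Chow livers (blue) and 4 HSD livers (red), labelled by replicate number, with mean and SD in black. *Cyp4f15* and *Cyp4v3* sit lower on HSD, while *Cyp4a10*, *Cyp4a14* and *Cyp4a31* are high in Chow 3 and HSD 2 and *Cyp4a14* also in HSD 1.

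*Cyp4f15*, a family 4F enzyme, showed the lowest adjusted p of the members. Its level was 89.8, 145, 123, 129.5 and 120.1 CPM in Chow 1 to 5, and 76.7, 91.1, 77.3 and 71.3 CPM in HSD 1 to 4. The diets met only where Chow 1, the lowest chow liver, fell just under HSD 2, the highest HSD liver. The chow mean was 1.54-fold the HSD mean in the fit, a log2 fold change of -0.62 (SE 0.13, 95% interval -0.90 to -0.34, edgeR adjusted p = 0.0173). Chow 1 stood apart from all other livers in acute phase genes, and without it the log2 fold change was -0.72 (edgeR adjusted p = 0.00175).

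The call on *Cyp4f15* held in the fit with the library number series as a covariate (log2 fold change -0.59, edgeR adjusted p = 0.0378). Within the first series, of 4 Chow and 2 HSD livers, it was -0.54 with an adjusted p of 0.275, and the second series holds 1 Chow and 2 HSD livers, too few for a value. The call was lost in edgeR without HSD 1, HSD 3 or HSD 4, with adjusted p-values of 0.0642, 0.0509 and 0.0659, and the log2 fold change stayed between -0.61 and -0.57.

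*Cyp4v3* was measured at 349, 411, 477, 464 and 444 CPM in Chow 1 to 5 and at 368, 246, 281 and 310.3 CPM in HSD 1 to 4. All chow livers but Chow 1 lay above every HSD liver. The log2 fold change was -0.51 (SE 0.13, 95% interval -0.80 to -0.22, edgeR adjusted p = 0.0408), and -0.58 without Chow 1 (edgeR adjusted p = 0.0118). This call was close to the threshold. It was lost without any 1 of Chow 2, 3, 4 and 5 or HSD 2, 3 and 4 (edgeR adjusted p from 0.0598 to 0.108) and with the series covariate (0.0763), the log2 fold change staying between -0.53 and -0.43.

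The other 4F members moved less. *Cyp4f14*, whose enzyme is a leukotriene B4 hydroxylase, had 219.95, 281, 271, 312 and 312 CPM in Chow 1 to 5 and 244, 243, 232 and 267 in HSD 1 to 4. Its log2 fold change was -0.18 (SE 0.11, 95% interval -0.42 to 0.06, edgeR adjusted p = 0.361). *Cyp4f13* had the narrowest spread of the 10 genes on chow, from 60.3 to 71.4 CPM, against 48.7 to 60.9 on HSD. Its log2 fold change was -0.24 (SE 0.09, 95% interval -0.43 to -0.05, edgeR adjusted p = 0.124). Summed, the 3 *Cyp4f* members gave -0.29 (SE 0.11, edgeR adjusted p = 0.120), which became -0.37 without Chow 1 (edgeR adjusted p = 0.0168) and was called lower by DESeq2 (adjusted p = 0.0406).

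Whether the *Cyp4f* members changed unequally was tested on ratios within each liver, which need no scaling between libraries. The log2 ratio of *Cyp4f15* to *Cyp4f14* in TPM was -1.07, -0.73, -0.80, -1.02 and -1.13 in Chow 1 to 5 and -1.40, -1.19, -1.37 and -1.67 in HSD 1 to 4. Every HSD liver was below every chow liver, and the means differed by -0.46 (two-sided exact permutation test, p = 0.00794, adjusted over 6 ratios 0.0476). This p is the smallest that 126 splits of 5 and 4 livers can give. The *Cyp4f13* to *Cyp4f14* ratio differed by -0.03 (exact permutation p = 0.881, adjusted 0.881) and turned positive, at 0.06, without Chow 1.

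*Cyp4a12a*, the most abundant member, had 507, 577, 517, 375 and 345 CPM in Chow 1 to 5 and 362, 259.5, 327 and 388 CPM in HSD 1 to 4. Chow 1, 2 and 3 lay above every HSD liver, and Chow 4 and 5 lay among them. The log2 fold change of -0.47 (SE 0.17, 95% interval -0.84 to -0.11) did not pass edgeR's test (adjusted p = 0.115), whereas DESeq2 called it lower (adjusted p = 0.0433). *Cyp4a12b* ranged from 93.5 to 218 CPM on chow and 116 to 169 on HSD (log2 fold change -0.13, SE 0.20, edgeR adjusted p = 0.746). Its sign was unsettled, as the value was 0.03 without Chow 2 and 0.07 in fits on TPM. The sum of the pair, which traded reads leave unchanged, gave -0.38 (SE 0.16, 95% interval -0.73 to -0.03, edgeR adjusted p = 0.174), and the *Cyp4a12b* to *Cyp4a12a* ratio did not differ detectably (log2 difference 0.37, exact permutation p = 0.183, adjusted 0.365).

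*Cyp4a14*, a lauric acid hydroxylase and PPARA target, varied most between livers. It had 4.40, 3.27, 60.8, 6.00 and 3.43 CPM in Chow 1 to 5 and 90.5, 139, 8.05 and 8.88 CPM in HSD 1 to 4. Chow 3, HSD 1 and HSD 2 were high and the other 6 livers were under 10 CPM, so both diets held high and low livers. The high livers were all of the first library number series, and the low HSD livers, HSD 3 and HSD 4, of the second. Within HSD the split and the series therefore cannot be told apart. The highest liver had 42.6-fold the level of the lowest, and the span was 18.6-fold within chow and 17.3-fold within HSD. Between the diets the log2 fold change was 1.96 (SE 0.99, 95% interval -0.20 to 4.12, edgeR adjusted p = 0.257). Single livers moved this value both ways: it was 3.82 without Chow 3 (SE 0.85, edgeR adjusted p = 0.0301) and 1.18 without HSD 2 (edgeR adjusted p = 0.554). With the series as a covariate it was 2.33 (edgeR adjusted p = 0.114), and within the first series 2.61 (edgeR adjusted p = 0.278). Apart from Chow 3, every HSD liver exceeded every chow liver. In estimated counts, Chow 1, 2 and 5 had 68, 56 and 44, against 1264 in Chow 3, 1920 in HSD 1 and 2834 in HSD 2.

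*Cyp4a10*, the other classical PPARA target, was high in some of the same livers, with 36.0, 44.3, 311, 104.5 and 51.8 CPM in Chow 1 to 5 and 135, 353, 54.0 and 51.6 CPM in HSD 1 to 4. Chow 3 and HSD 2 were the highest. HSD 3 and 4, the HSD livers of the second library number series, lay among the lower chow livers. Its log2 fold change was 0.44 (SE 0.69, 95% interval -1.06 to 1.93, edgeR adjusted p = 0.753) and turned to -0.45 without HSD 2 (edgeR adjusted p = 0.742). *Cyp4a31*, a close copy, had 7.37, 3.80, 19.9, 3.52 and 1.79 CPM in Chow 1 to 5 and 12.8, 24.5, 4.44 and 5.19 in HSD 1 to 4 (log2 fold change 0.68, SE 0.63, edgeR adjusted p = 0.563), and its value was 1.51 without Chow 3 and 0.0326 without HSD 2. *Cyp4a32* ranged from 16.0 to 43.6 CPM on chow, Chow 3 being the highest, and from 11.2 to 24.7 on HSD (-0.45, SE 0.32, edgeR adjusted p = 0.420), its value running from -0.66 to -0.12 without single livers. The 3 together gave 0.33 (SE 0.62, 95% interval -1.01 to 1.68, edgeR adjusted p = 0.790).

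**Figure D3:**
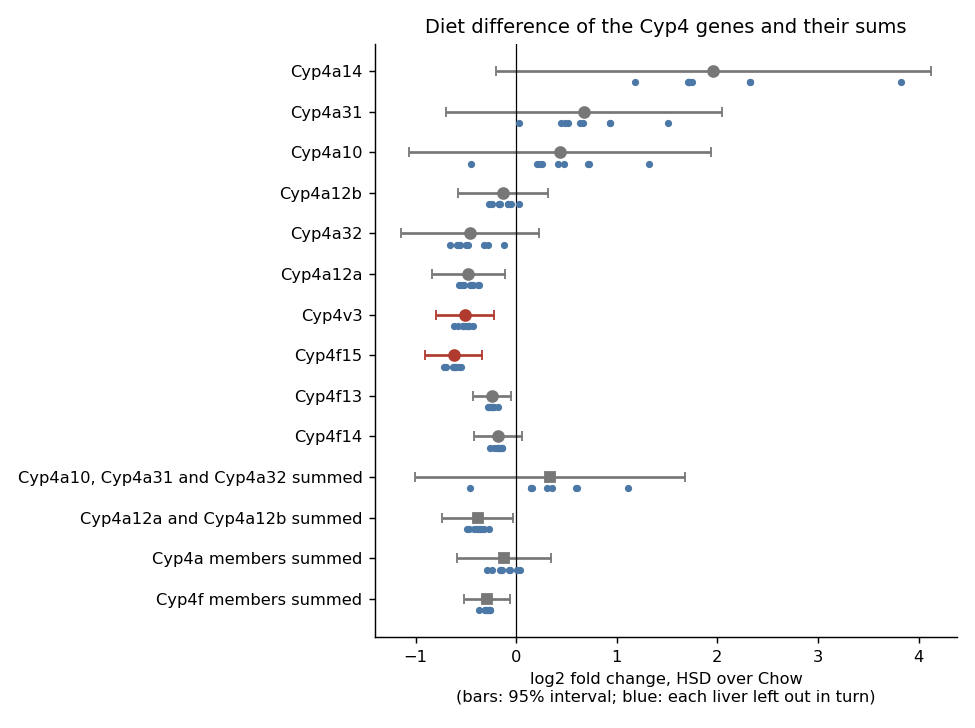
Log2 fold change (HSD over Chow, x axis) of each member (circles) and of 4 sums of members (squares), with 95% intervals, red where the edgeR test was passed, and small blue points for the value with each liver left out in turn. *Cyp4f15* (-0.62) and *Cyp4v3* (-0.51) are narrow and below 0, whereas the interval of *Cyp4a14* runs from -0.20 to 4.12.

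The makeup of the *Cyp4a* transcripts varied between mice on both diets. Summed TPM of the 6 genes was 289 to 615 on chow and 324 to 595 on HSD, and the summed counts gave a log2 fold change of -0.12 (SE 0.22, 95% interval -0.59 to 0.35, edgeR adjusted p = 0.787). *Cyp4a12a* made up 43.2 to 67.8% of it on chow and 25.0 to 60.0% on HSD. In HSD 2, *Cyp4a10* at 236 TPM exceeded *Cyp4a12a* at 149, the one liver where it did. *Cyp4a14* made up 0.355 to 5.01% on chow and 1.31 to 13.0% on HSD. The log2 ratio of *Cyp4a14* to *Cyp4a10* was -4.31 to -2.60 on chow and -2.81 to -0.82 on HSD, a difference of 1.67 (exact permutation p = 0.0317, adjusted over 6 ratios 0.0952), which did not pass. The ratios of *Cyp4a10* to *Cyp4a12a* (difference 0.95, exact permutation p = 0.341, adjusted 0.512) and of all *Cyp4a* to all *Cyp4f* members (0.19, exact permutation p = 0.532, adjusted 0.638) did not pass either.

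**Figure D4:**
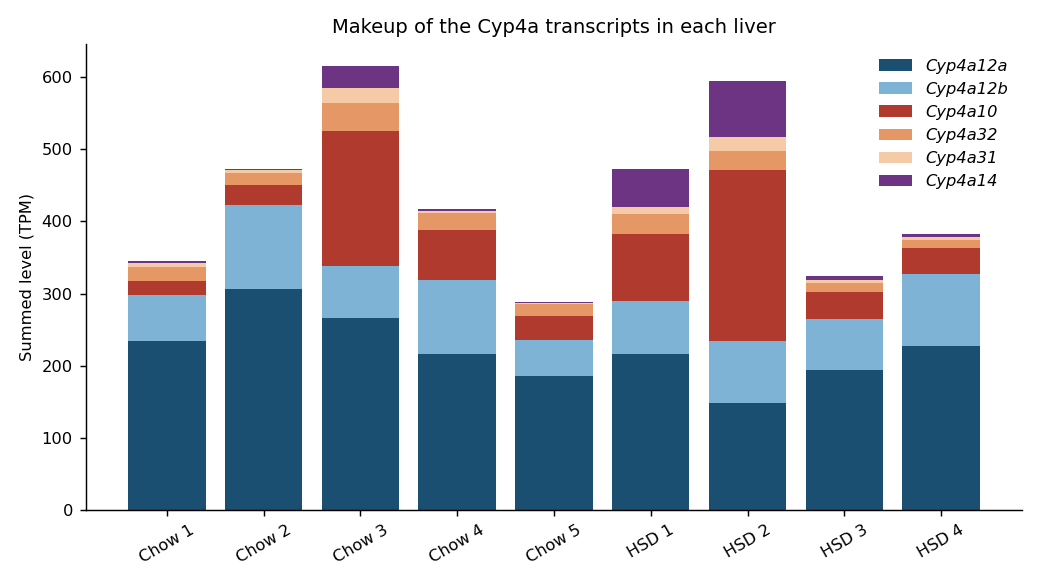
Summed TPM of the 6 *Cyp4a* genes in each liver (stacked bars from 0, 1 color per gene, 9 livers on the x axis). *Cyp4a12a* is the largest part in every liver but HSD 2, and *Cyp4a14* is visible mainly in Chow 3, HSD 1 and HSD 2.

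Among the members, 45 pairs were correlated over the 9 livers in log2 CPM, and 0 passed after adjustment by exact permutation, with 8 at an unadjusted Pearson p under 0.05. No pooled coefficient is given for pairs with *Cyp4a14*, *Cyp4a10* or *Cyp4a31*, in which a few livers lay far above most others. The highest of the rest was *Cyp4f15* with *Cyp4v3* (Pearson r = 0.733, exact permutation p = 0.0307, adjusted 0.251, and Spearman rho = 0.633, exact permutation p = 0.0760, adjusted 0.545). It was 0.694 without the 2 livers farthest from the median, 0.619 within the first library series and 0.154 after the diet means were taken out.

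Genes most like a member were sought by the correlation of log2 CPM over the 9 livers after taking out diet means, among 10268 genes outside the family, as a description without test. For *Cyp4a10* these included *Gm4952*, *Etfdh*, *Gpatch2l* and *Retsat* (r 0.96, 0.958, 0.938 and 0.924, with Spearman rho of 0.95, 0.9, 0.933 and 0.783). *Etfdh*, which passes electrons of beta-oxidation to ubiquinone, had 249.9 CPM in Chow 3 and 256 in HSD 2, against 182 to 216 in the other 7 livers. For *Cyp4a14* they were *Crot*, *Akap1*, *Retsat*, *Mmd* and *E4f1* (0.967, 0.964, 0.934, 0.933 and 0.925, with rho of 0.933, 0.933, 0.9, 0.95 and 0.883). *Retsat*, a retinol saturase, had 345 CPM in Chow 3, 339.8 in HSD 1 and 353 in HSD 2, against 179 to 244 in the other livers. For *Cyp4a10* and *Cyp4a14*, the few livers far above most others weigh heavily in r. Genes found in this way also need not follow a member across diets. *Crot* had 341 CPM in HSD 1 and 403 in HSD 2, against 438 in Chow 1, where *Cyp4a14* was low.

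For *Cyp4a12a* the closest genes by this measure were *Rmi1*, *Ddx54*, *1600002K03Rik*, *Phc1* and *Ndufs7* (r 0.922 to 0.953). For *Cyp4f14* they were *D5Ertd579e*, *Clmn*, *Nbr1*, *Luc7l3* and *Akr1c14* (0.972 to 0.986). For *Cyp4v3* they were *Scarf1*, *Ddx3x*, *Hif1a*, *Myo6* and *Alkbh5* (0.963 to 0.98). With the diet means left in, r with *Cyp4v3* was 0.761 for *Scarf1* but negative for the others, at -0.26, -0.397, -0.237 and -0.334 in that order.

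Most PPARA targets did not pass, and with all 9 livers more of them were called higher than lower. *Ppara* itself had 76.3 to 131 CPM on chow and 91.9 to 137 on HSD (log2 fold change 0.26, SE 0.15, edgeR adjusted p = 0.329). Of 11 genes for PPARA, its relatives and its partners, 1 was higher and 0 were lower, the higher one being *Ppargc1a*, a coactivator of PPARA (0.93, edgeR adjusted p = 0.00955). Of 36 other PPARA targets, 5 were higher and 2 were lower, against 3.44% and 3.23% of all genes tested. The other 29 did not pass, and the median log2 fold change was 0.09. Without single livers, 2 to 5 were higher and 0 to 2 lower, and without HSD 2 there were 2 each way. Higher with all livers were *Pdk4*, a kinase that shuts pyruvate dehydrogenase (1.82), and the hormone gene *Fgf21* (2.99). So were the thioesterases *Acot3* (2.64) and *Acot4* (0.99) and *Crat*, carnitine acetyltransferase (1.20), with edgeR adjusted p-values over the 5 from 0.00167 to 0.0292. *Pdk4*, *Fgf21* and *Acot3* were scarce on chow, at means of 1.67, 0.56 and 1.48 CPM. Among the lower was *Creb3l3*, a liver transcription factor (-0.58, edgeR adjusted p = 0.0314).

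Livers with much *Cyp4a14* were also those with high PPARA targets. The mean of the 36 genes, in log2 CPM centred on each gene's mean over the livers, was -0.44, -0.17, 0.08, -0.03 and -0.16 in Chow 1 to 5 and 0.29, 0.61, -0.17 and -0.01 in HSD 1 to 4. HSD 2, HSD 1 and Chow 3 held the 3 highest values in that order, which is also their order for *Cyp4a14*. The 2 diets overlapped in this mean as they did in *Cyp4a14*, and Chow 3 was close to HSD 4, which was low in *Cyp4a14*. The clock genes also varied among mice: log2 *Arntl* minus log2 *Dbp*, which swings over the day, ran from -6.52 to -1.57 in chow and from -4.51 to -1.94 in HSD livers, with Chow 3 at the top. With this difference as a covariate, *Cyp4a14* had a log2 fold change of 2.18 (SE 0.85, edgeR adjusted p = 0.142). Whether PPARA or the clock set the level of *Cyp4a14* was not tested. In the list of 17 clock genes, 0 passed in edgeR, 3 had an unadjusted p under 0.05 and DESeq2 called 2.

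**Figure D5:**
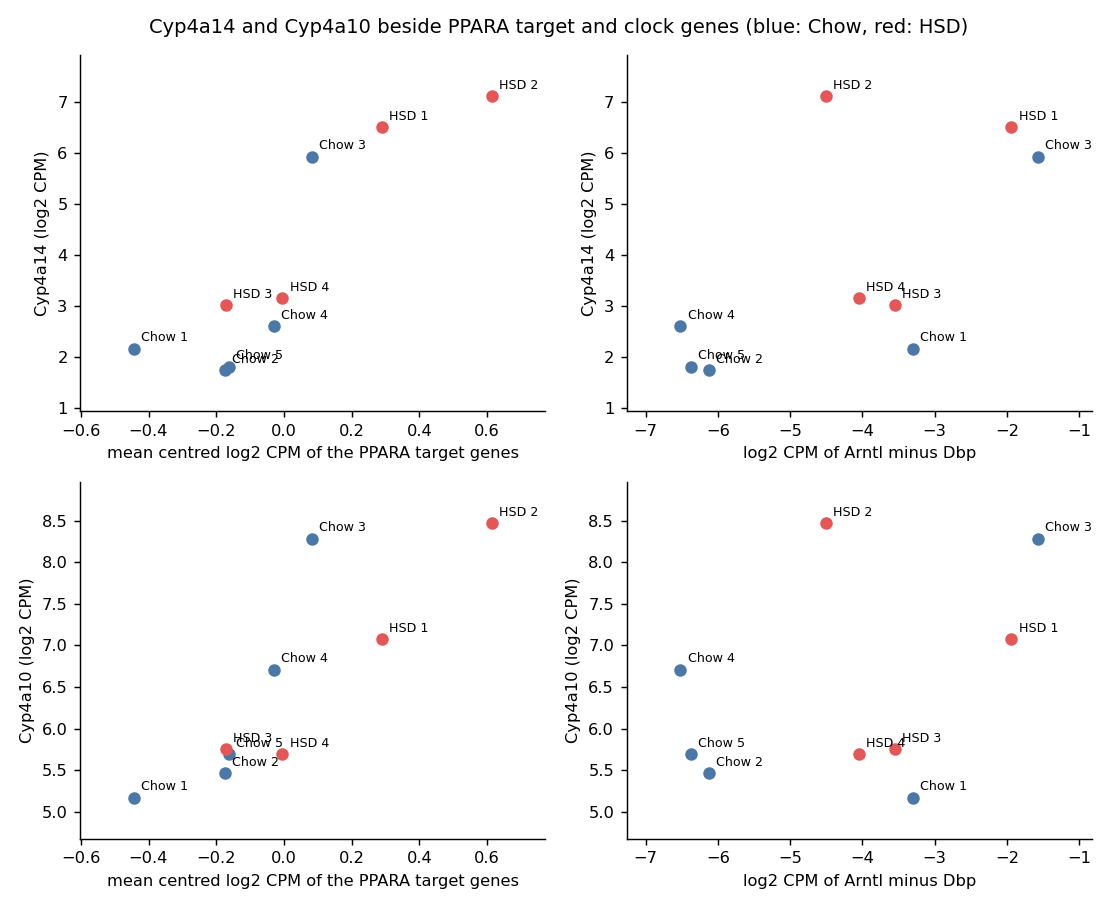
Log2 CPM of *Cyp4a14* (top) and *Cyp4a10* (bottom) in each of the 9 livers against the mean centred log2 CPM of 36 PPARA targets (left) and log2 *Arntl* minus log2 *Dbp* (right), Chow blue and HSD red. In the top panels Chow 3, HSD 1 and HSD 2 lie above the other livers, at 0.08, 0.29 and 0.61 on the PPARA target axis. On that axis Chow 3 lies close to HSD 4, at -0.005, a liver low in *Cyp4a14*. On the clock axis Chow 3, HSD 1 and HSD 2 run from -4.51 to -1.57, a range that also holds Chow 1, HSD 3 and HSD 4.

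The partners of the reaction were next. Of 5 genes tested for electron supply, 0 were higher and 1 was lower, *Cyb5a*, a cytochrome b5 (log2 fold change -0.39, edgeR adjusted p = 0.0406). *Por*, the P450 reductase, ranged from 267 to 512 CPM on chow and from 208.2 to 351.4 on HSD (-0.54, SE 0.22, edgeR adjusted p = 0.163). Of 8 dehydrogenases that finish the omega-oxidation, *Adh7* was higher (0.76, edgeR adjusted p = 0.0324) and *Aldh1a1* was lower (-0.52, edgeR adjusted p = 0.0280). *Adh7* was scarce on both diets, at means of 1.83 CPM on chow and 3.10 on HSD. *Adh1*, an alcohol dehydrogenase at 1156 to 1581 CPM on chow and 1842 to 2076 on HSD, was apart between the diets without passing (0.43, edgeR adjusted p = 0.0518). *Aldh3a2*, the fatty aldehyde dehydrogenase, gave 0.40 (edgeR adjusted p = 0.251).

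Of 16 peroxisomal genes that shorten dicarboxylic acids, 2 were higher (*Abcd2*, a very-long-chain transporter, 1.79, and *Acot4*, 0.99) and 2 were lower. The lower ones included the thiolase *Acaa1a* (-0.58, edgeR adjusted p = 0.0168). *Ehhadh*, the bifunctional enzyme known for its role in dicarboxylic acids, had 90.0 to 277 CPM on chow and 175 to 273 on HSD (0.05, edgeR adjusted p = 0.932). Of 16 genes of eicosanoid handling, *Cyp2c29* (1.31) and *Cyp2c38* (1.01) were higher and *Cyp2c40* (-1.70) was lower, with edgeR adjusted p-values from 0.000642 to 0.0390.

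Since *Cyp4a12a* and *Cyp4a12b* are male-predominant in mouse liver, other genes of that kind were counted. Of 22 male-biased genes, 8 were lower, against 3.23% of all genes tested, and 0 were higher, against 3.44%. The other 14 did not pass, and the median log2 fold change was -0.51 against -0.0039 over all genes. This list, like the others, was chosen with earlier results of these data known. The 4 with the lowest adjusted p were *Selenbp2* (-4.13), *Serpina1e* (-2.48), *Cyp7b1*, an oxysterol hydroxylase (-1.90), and *Keg1* (-1.01), with edgeR adjusted p-values of at most 0.00207. *Hsd3b5* (-0.40, edgeR adjusted p = 0.0820) and *Cyp2d9* (-0.28, edgeR adjusted p = 0.281) did not pass. Some of the 14 that did not pass had log2 fold changes above 0, of up to 1.07. DESeq2 called 11 of the 22 lower and 1 higher, where 5.71% of all genes were lower. Without single livers, an alternative chosen after seeing the data, the count of lower genes was 6 to 10, and within the first library series it was 3, where 0.154% of all genes tested were lower. Of 10 female-biased genes tested, 2 were higher (*Cyp17a1*, 1.94, and *Acot3*, which is also in the list of PPARA targets) and 0 were lower.

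Growth hormone governs many sex-biased liver genes. Among 14 genes listed for growth hormone and sex signalling, *Igfals* was lower (-0.64, edgeR adjusted p = 0.00657). *Jak2* (0.36) and the leptin receptor gene *Lepr* (2.12), also in that list, were higher. The other 11 of the 14 did not pass, and a part of growth hormone in the male-biased genes was not tested. Other *Cyp4* genes added little: 8 of 12 listed had a row and 3 were tested, *Cyp4b1* (13.1 CPM on chow and 11.9 on HSD), *Cyp4f17* (7.44 and 7.71) and *Cyp4f16* (2.06 and 2.13). In these 0 passed in edgeR or DESeq2 and 0 had an unadjusted p under 0.05, the log2 fold changes being -0.14, 0.05 and 0.02.

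Cell markers were compared to see what moved beside the members. Hepatocyte markers were present in every liver, with 2 of 8 lower on HSD (*Fah* and *Serpina1a*) and *Alb* at 44370 CPM in Chow 1 against 65961 to 103130 elsewhere. Kupffer cell and macrophage markers had a median log2 fold change of -0.58, in the same direction as *Cyp4f15* and *Cyp4v3*, although 0 of 9 passed in edgeR or DESeq2 and 5 had an unadjusted p under 0.05. Their summed level was 153 to 275 TPM on chow and 96.3 to 200.3 TPM on HSD, with 0 of 9 markers at 0 in any liver, and their part in these results was not tested. Kidney tubule markers, from an organ that also expresses *Cyp4a* genes, summed to 3.78 to 21.6 TPM on chow and 2.99 to 13.3 on HSD, and 1 to 3 of the 6 were at 0 in all livers but Chow 1. In the 21 acute phase genes 0 were higher and 1 was lower, with a median of -1.06, and Chow 1 was the outlying liver, its mean centred log2 CPM of 2.94 facing -0.59 to 0.21 in the others (*Saa2* 10112 CPM against 3.69 to 39.5). Chow 1 was also the lowest chow liver for *Cyp4f14*, *Cyp4f15* and *Cyp4v3*, and the part of the acute phase genes in this was not tested.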

How the data were processed

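Liver RNA-seq of 9 C57BL/6J mice (5 Chow, 4 HSD, grouped by their labels) was analysed from tables the authors deposited for 19329 gene symbols. The authors ran kallisto (version not given in the sources used here) on GRCm38 and deposited estimated counts per gene, which are not scaled, and TPM values, which the authors scaled to a fixed sum per library (923061 to 945110 over the listed symbols). Kallisto divides reads among close copies, and the step from transcripts to genes is not given in these sources. Of the estimated counts above 0, 34.1% were whole within 1e-06 and 99.1% of these were even, so the fits were also run with counts halved. No column of another sample was present (0 columns). No pair of libraries of a diet repeated one library (chi-square per degree of freedom 15.2 to 264 over 16 pairs).

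After rounding, genes with few counts were dropped by filterByExpr (at least 10 counts, 15 in total). TMM factors scaled the libraries, and R 4.3.3 with edgeR 4.0.16 gave the tests (quasi-likelihood, diet as single factor, 7 residual degrees of freedom, biological coefficient of variation 0.187, Benjamini-Hochberg over 12091 genes, threshold 0.05). Log2 CPM used a prior count of 2. Sums of paralogs replaced their rows in a refit. Ratios of TPM within a liver were compared by exact permutation. The scripts were tested on simulated counts. DESeq2 1.42.0, limma 3.58.1 (voom, and log2 TPM with pseudocounts of 1 and 0.1), other size factors, library totals, no low-count filter, a replicate block, the library number series, a clock covariate and each liver left out in turn were alternatives. Depth gave every member at least 23.0 estimated counts in each liver, where counting error is wide only for *Cyp4a14* and *Cyp4a31*.

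The members and all gene lists were chosen with earlier results of these data known. Named genes were all members, up to 4 genes per list with the lowest adjusted p among those passed, pathway genes with a set role (*Cyp2b9* among them, which was not among the genes tested), and the 5 genes most correlated with each of 5 members. Further genes were named after their values were seen, namely the fifth PPARA target *Crat*, the cell markers *Fah*, *Serpina1a* and *Alb*, and the 3 other *Cyp4* genes tested. Some genes of this rule are not reported here. Lists counted without single livers were added after seeing the data. Sequences and positions are from GENCODE vM21.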

Additional observations from a re-analysis of the deposited data

Results flagged for a closer look

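Members, sums of members and ratios of members were each examined within a diet for an outlying liver, so these groups share genes. In 1 of 40 such groups (2.5%, where chance gives about 1 in 20 for separate groups) a liver stood apart. It was *Cyp4a14* in Chow 3, at a log2 CPM of 5.93, which was 3.84 above the mean of the other 4 chow livers (1.75 to 2.61). The same liver held the highest *Cyp4a10*, *Cyp4a31* and *Cyp4a32* of the chow group.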

How the results depend on the processing

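The count of members lower on HSD, 2 as reported, stayed within 1.5 times that in 7 of 23 settings and moved in 16, over a range of 0 to 3. It was 3 in DESeq2, with *Cyp4a12a*, where 5.71% of all genes were lower. It was 1 with library totals (2.1% of all genes), 1 with the replicate block (1.7%) and 1 with the library number series as a covariate (2.17%). It was 0 within the first series, where 0.154% of all genes were lower, and 0 in all 3 fits of limma on TPM, where 0.309 to 0.958% were. It was 0 at an adjusted p under 0.01, and 0 to 2 without single livers, where 1.22 to 4.11% of all genes were lower. The count higher, 0 as reported, moved in 1 of 23 settings and was 0 to 1 without single livers, the 1 being *Cyp4a14* without Chow 3. The replicate numbers did not pair the livers (correlations of deviations 0.092, 0.085, -0.109 and 0.089), and under the block *Cyp4v3* had an edgeR adjusted p of 0.116. Fits on TPM shifted the median log2 fold change of all genes by 0.14 to 0.16 with the low-value filter, and relative to it *Cyp4f15* was at -0.60 to -0.62 and *Cyp4v3* at -0.49 to -0.51. The share of calls that were higher was 51.5% in edgeR, 69.1% with library totals and 82.5% on log2(TPM + 1). Genes called lower and higher in all were 690 and 647 in DESeq2.

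Signs turned in these cases, none of which passed a test. *Cyp4a10* was -0.45 without HSD 2 (-0.45 to 1.32 without single livers), and so was its sum with *Cyp4a31* and *Cyp4a32* (-0.45, range -0.45 to 1.11). *Cyp4a12b* was -0.27 to 0.0315 without single livers, 0.0719 in fits on log2(TPM + 1) with a filter, 0.0719 without one and 0.0734 on log2(TPM + 0.1). The *Cyp4a* sum was 0.0685 with the series covariate, 0.0131 within the first series, 0.0065 without HSD 3 and -0.29 to 0.0387 over all single livers left out. The *Cyp4f13* to *Cyp4f14* ratio was 0.0702 within the first series and ran from -0.0971 to 0.0603 without single livers. By contrast, the *Cyp4f15* to *Cyp4f14* ratio passed in the main test and its sign did not turn. Its difference was -0.39 within the first series (adjusted exact permutation p = 0.4) and -0.53 to -0.37 without single livers (adjusted 0.0857 to 0.171), where fewer livers leave fewer splits. The cause of the other changes was not tested.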
